A study of Mus musculus with 18 samples.

Results

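The genes described here are 43 components of endoplasmic reticulum associated degradation, the route to which the ubiquitin ligase gene Rnf185 belongs. They were chosen as a list of named genes by their role in the route: Rnf185 with its paralog and complex partners, ubiquitin-conjugating enzymes, other ligases, dislocation factors, recognition factors, and extraction factors. The 43 members are a small set among the 47643 genes of the deposited count table, and 41 of them were among the 14309 genes with enough counts to test. RNA was measured in 18 libraries of the mouse prostate cancer line MPC3, in 3 groups of 6. The control libraries are titled plko and have the treatment label Control. The other groups carry the treatment label RNF185 KD and are titled for the short hairpin RNA, shRNF185.1 or shRNF185.3, that lowers Rnf185 messenger RNA. Each group has 2 libraries in each of the labels' 3 batches. The labels do not say whether the 6 libraries of a group came from separate cultures or from how many transductions, so p-values measure the spread between these libraries, which may be technical. The deposited counts had already been adjusted for batch. The test takes no account of that adjustment, so its p-values may be too small. Both hairpins were compared with the same control libraries, so their values are given side by side and are not independent of each other.

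Endoplasmic reticulum associated degradation removes misfolded or surplus proteins from the endoplasmic reticulum. Lectins and mannosidases in the lumen mark and recognise the substrate, membrane complexes move it to the cytosol, ligases and conjugating enzymes attach ubiquitin, and the ATPase Vcp with its cofactors pulls it out for the proteasome. Each ligase serves its own group of substrates, and several genes of the route are induced when unfolded proteins gather in the lumen. Rnf185 encodes a membrane ligase that acts mainly on membrane proteins, together with membralin and a TMUB protein.

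The libraries held between 22027395 and 43379662 counts. MPC3 as sequenced here had keratin and vimentin RNA, but among the listed markers of luminal prostate epithelium Epcam and Pbsn stayed below the count filter, with Pbsn at 0 in every library. Of the 5 luminal markers reported here, 3 were tested. Krt18 averaged 354 CPM (deposited counts scaled to library size) in control, 177 with shRNF185.1 and 149 with shRNF185.3, and Krt8 and Cdh1 also fell with both hairpins. The summed level of these 5 ran from 1408 to 1753 CPM in control, from 873 to 1190 with shRNF185.1 and from 940 to 1039 with shRNF185.3. The 4 mesenchymal markers summed to between 3040 and 4010, 3658 and 4179, and 3806 and 4379 CPM in the same order. Vim made up most of that sum and was not called, while Col1a1 rose (1.29 and 2.19, log2, with shRNF185.1 and shRNF185.3) and so did Pdgfrb (0.36 and 0.58). Pdgfra rose with shRNF185.3 (0.46) and was not called with shRNF185.1. The 3 basal markers summed to between 17.3 and 37.8 CPM in any library. Trp63 rose (0.64 and 0.76), and Krt14 fell with shRNF185.1 (-0.49). Leukocyte markers summed to at most 5.11 CPM and endothelial markers to at most 0.719 CPM in any library. These shifts accompany the comparisons with control, and their part in the members' results was not tested. Between the hairpins Krt8, Cdh1 and Vim were not called, while Krt18 was lower and Col1a1, Pdgfra and Pdgfrb were higher with shRNF185.3. In bulk RNA, fewer cells of a type and less RNA per cell cannot be told apart.

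Rnf185 RNA fell about equally with both hairpins, to 0.162 of its control level. The gene (ENSMUSG00000020448) lies on the minus strand of chromosome 11 from 3415982 to 3452363 in GENCODE M21 on GRCm38, with 2906 exonic bases. Its deposited CPM ran from 33.6 through a median of 36.2 to 38.4 in control, from 5.21 through 5.63 to 6.80 with shRNF185.1, and from 5.19 through 5.73 to 6.72 with shRNF185.3. No library of either hairpin group came near the control range, and the hairpin groups covered the same range. The means were 35.9 ± 1.96, 5.81 ± 0.582 and 5.80 ± 0.546 CPM (SD, n = 6 each). The log2 fold change was -2.63 for each hairpin (95% interval -2.78 to -2.47), with adjusted p-values of 9.3e-15 for shRNF185.1 and 1.91e-14 for shRNF185.3 in edgeR's quasi-likelihood test. The shRNF185.1 libraries differed from control by -2.60, -2.74 and -2.52 (log2) inside batches 1, 2 and 3, and the shRNF185.3 libraries by -2.43, -2.82 and -2.60. Between the hairpins the 95% interval of the difference in Rnf185 RNA was -0.16 to 0.16 (adjusted p = 0.997). Between 133 and 176 counts per library remained with shRNF185.1 and between 135 and 169 with shRNF185.3, so the residual RNA lay well above a floor of 3 counts.

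In edgeR's test of all 18 libraries, neither the paralog nor a complex partner was called higher with either hairpin. Rnf5 encodes the closest relative of Rnf185, a ligase of the same membrane. Its CPM ran from 24.1 through 29.9 to 33.4 in control, from 23.1 through 27.4 to 29.1 with shRNF185.1, and from 22.0 through 25.6 to 27.7 with shRNF185.3. The 3 ranges overlapped. The log2 fold change was -0.13 (-0.30 to 0.03, adjusted p = 0.224) with shRNF185.1 and -0.22 (-0.39 to -0.06, adjusted p = 0.0418, edgeR) with shRNF185.3. The second value passed the threshold only narrowly, and it passed in 6 of 13 alternative analyses, where its adjusted p ran from 0.0137 to 0.305. The difference was largest in batch 2, at -0.42 and -0.46 for the 2 hairpins, against 0.15 and 0.02 in batch 3. Without batch 2 the shRNF185.3 value had an adjusted p of 0.305, and without batch 1 it had one of 0.207. Without batch 3 the shRNF185.1 value was -0.27 and was called (adjusted p = 0.0406), in a range of 0.0406 to 0.908. Of the exonic bases of Rnf5, 24.7% overlap Gm20463 on the opposite strand, and the strand setting of the authors' counting is not given in the sources used here.

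The 3 genes for proteins that assemble with the ligase were not called in edgeR's test of all libraries. Tmem259, which encodes membralin, had medians of 136, 146 and 138 CPM in control, shRNF185.1 and shRNF185.3, with log2 fold changes of 0.10 (adjusted p = 0.137) and 0.01 (-0.10 to 0.11, adjusted p = 0.928). Tmub1, a membrane protein with a ubiquitin-like domain, had medians of 9.56, 11.1 and 9.89 CPM. Its log2 fold changes were 0.23 (0.02 to 0.44, adjusted p = 0.0964) and 0.04 (-0.17 to 0.26). Tmub2, its relative, had medians of 35.3, 38.0 and 36.3 CPM, with log2 fold changes of 0.08 (-0.05 to 0.21) and 0.03 (-0.10 to 0.16). For each of these 3 genes the ranges of all 3 groups overlapped. Tmub1 was called higher with shRNF185.1 with the offset for GC content and length (0.21, adjusted p = 0.0271, in a range of 0.0271 to 0.522), and Tmub2 without batch 2 (0.20, adjusted p = 0.019, in a range of 0.019 to 0.989). Between the hairpins, Tmem259 was called with that offset (-0.13, adjusted p = 0.00785, in a range of 0.00785 to 0.515).

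**Figure D1:**
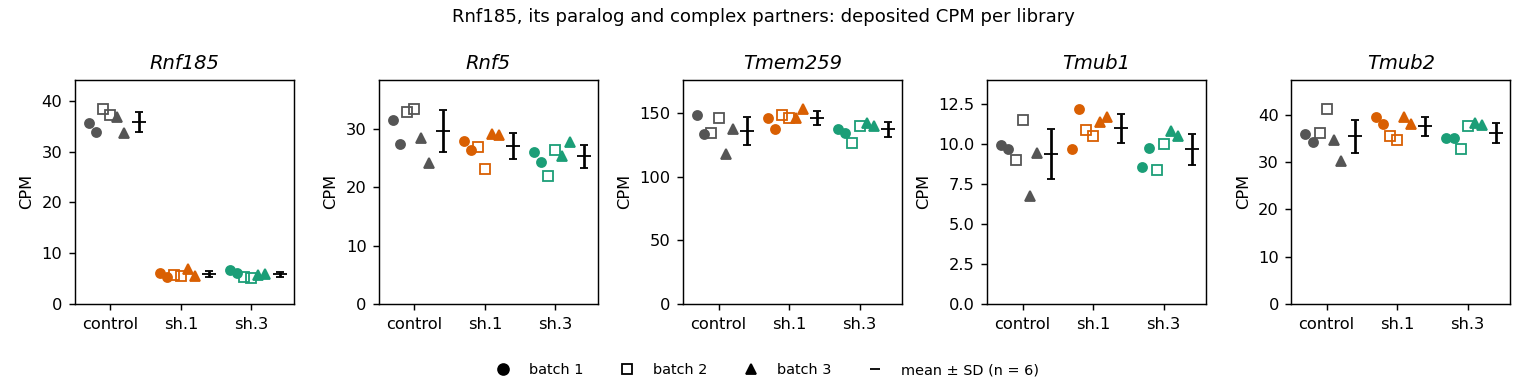
Deposited CPM of Rnf185, Rnf5, Tmem259, Tmub1 and Tmub2 in each of the 18 libraries, by group (sh.1 and sh.3 stand for shRNF185.1 and shRNF185.3); symbols give the batch and black bars the mean ± SD of 6 libraries. The Rnf185 panel drops from 33.6 to 38.4 CPM in control to at most 6.80 CPM in the hairpin groups, while the other 4 genes have overlapping groups.

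Most members of the route were not called with either hairpin, and the shares that were called lay near or below those of all genes. With shRNF185.1, 10 of 41 members were called at an adjusted p under 0.05, or 24.4%, beside 28.9% of all genes tested, with 5 members higher (14.6% of all genes) and 5 lower (14.3% of all genes). With shRNF185.3, 9 of 41 were called, beside 27.3% of all genes, with 3 higher (14.2% of all genes) and 6 lower (13.1% of all genes). Without batch 1, 4 members were called with shRNF185.3, beside 14.9% of all genes in that setting. Taking the mean of both hairpins, 10 members were called (24.4%, beside 32.9% of all genes). Together 14 members were called with at least 1 hairpin. Only 5 members, or 12.2%, were called with both hairpins in the same direction, beside 16.1% of all genes, and without batch 1 the number was 2. The 3 that fell were Rnf185, Ube2j1 and Aup1 (7.13% of all genes fell with both), and the 2 that rose were Rnf145 and Herpud1 (8.99%).

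Only Rnf185 and Herpud1 were called with a log2 fold change of at least 0.5 in either direction, 2 of 41 members with each hairpin, beside 10.4% of all genes with shRNF185.1 and 10.2% with shRNF185.3. The other 39 tested members lay within 0.5 of 0 in both comparisons, beside 86.4% of all genes in each. The median absolute log2 fold change of the members was 0.103 with shRNF185.1 and 0.0751 with shRNF185.3, against 0.16 and 0.153 over all genes. Members were also measured more tightly, with a median standard error of 0.0544 against 0.0896 for all genes. All 6 libraries lay outside the control range for 5 members with shRNF185.1 (12.8% of all genes) and for 6 members with shRNF185.3 (13.3% of all genes). Rnf185 and Herpud1 were the 2 members that did so with both, or 4.88%, beside 6.58% of all genes.

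**Figure D2:**
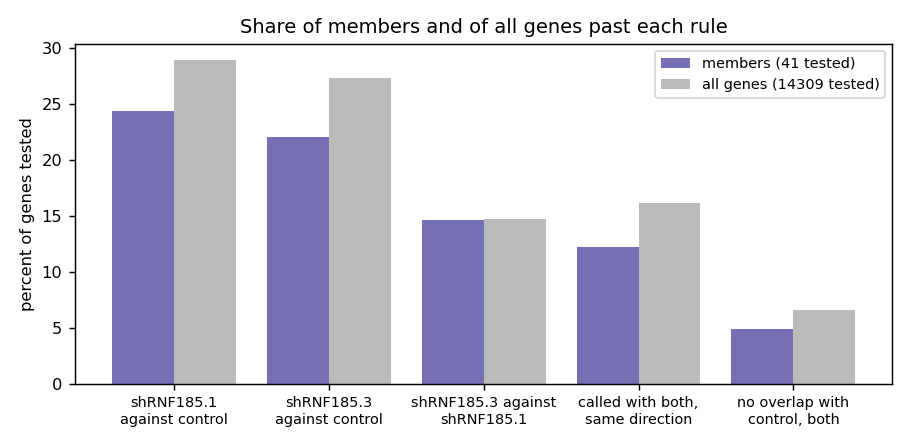
Percent of the 41 tested members (purple) and of all 14309 tested genes (grey) past each rule: called at an adjusted p under 0.05 with each hairpin, between the hairpins, with both hairpins in the same direction, and with no overlap with control in both hairpin groups. The members' bars stand at 24.4%, 22.0%, 14.6%, 12.2% and 4.88%, and none stands above the bar for all genes.

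**Figure D3:**
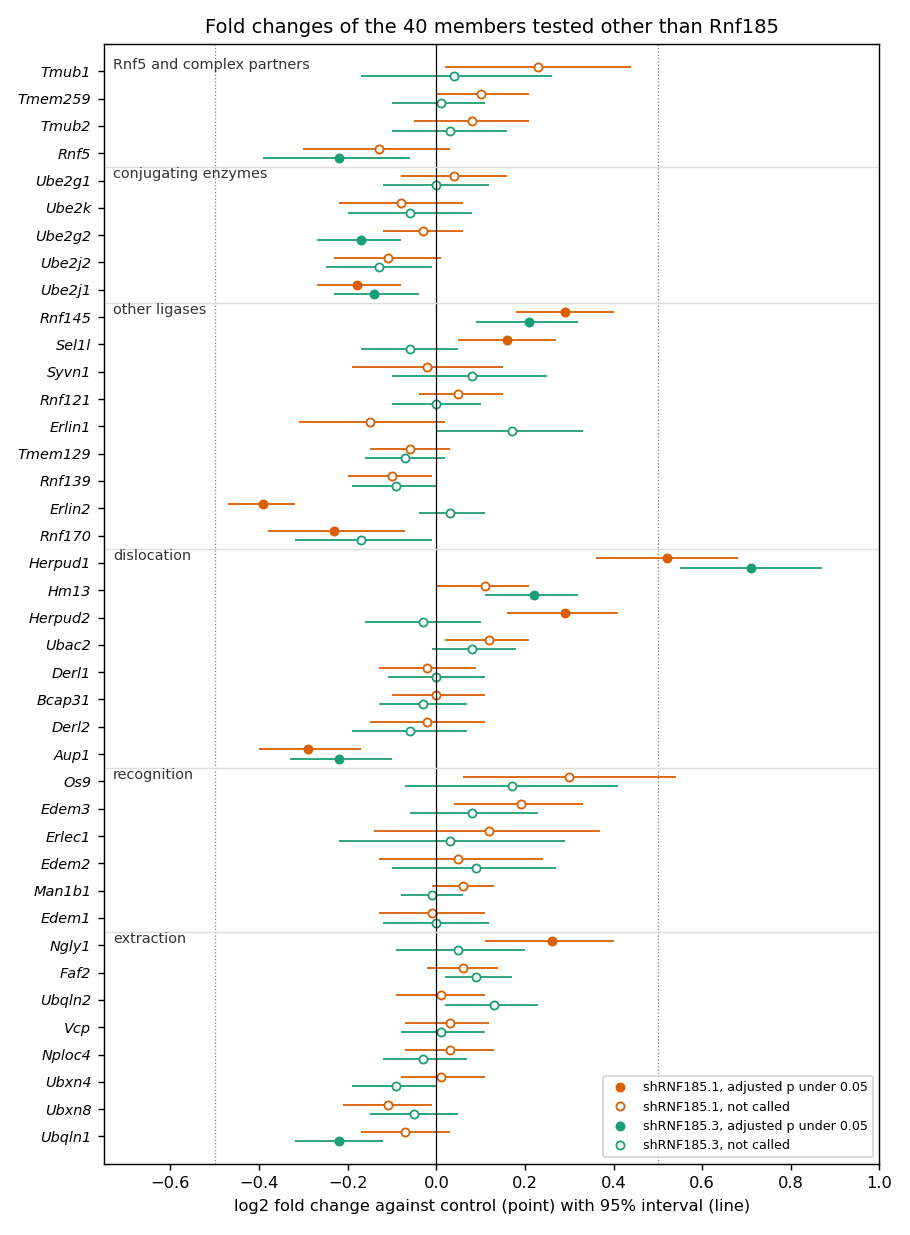
Log2 fold change against control of the 40 tested members other than Rnf185, by role, for shRNF185.1 (orange) and shRNF185.3 (green), with 95% intervals as lines, filled points for adjusted p under 0.05 and dotted lines at 0.5 in either direction. Herpud1 is the one member whose points lie beyond the dotted lines, at 0.52 and 0.71.

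Among the 5 conjugating enzymes, which hand ubiquitin to the ligases, 1 was called with shRNF185.1 and 2 with shRNF185.3, all lower. Of all genes tested, 14.3% and 13.1% were called lower with these hairpins, and a group of 5 is too small to set apart from those shares. Ube2j1, a conjugating enzyme anchored in the endoplasmic reticulum membrane, ran from 72.6 through 74.4 to 84.9 CPM in control, from 62.0 through 68.9 to 69.7 with shRNF185.1, and from 66.2 through 68.9 to 73.2 with shRNF185.3. All 6 shRNF185.1 libraries were below the lowest control library, and the shRNF185.3 range reached into the control range. The log2 fold changes were -0.18 (adjusted p = 0.00602) and -0.14 (adjusted p = 0.0323, edgeR). The difference was largest in batch 3, at -0.31 and -0.28, where 1 control library stood above the rest. Leaving out batch 3 gave -0.11 (adjusted p = 0.0983) and -0.06 (adjusted p = 0.394). Summing the libraries of a group and batch also ended the shRNF185.1 call (adjusted p = 0.0594), and the shRNF185.3 call was lost in 7 of 13 alternatives, with adjusted p-values from 0.0116 to 0.394 over all of them.

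Ube2g2, a soluble conjugating enzyme that is brought to the membrane by other members such as Aup1, was called with shRNF185.3. Ube2g2 CPM ran from 92.2 through 98.8 to 107 in control, from 92.7 through 97.6 to 102 with shRNF185.1, and from 86.0 through 87.9 to 90.8 with shRNF185.3. The shRNF185.3 libraries lay below every control library, and the shRNF185.1 libraries lay within the control range. The log2 fold change was -0.03 with shRNF185.1 (adjusted p = 0.661) and -0.17 with shRNF185.3 (adjusted p = 0.00665). Leaving out batch 2, the latter was -0.11 with an adjusted p of 0.113, in a range of 0.000265 to 0.113 over the alternatives, and summing the libraries of a group and batch also ended the call (adjusted p = 0.0693). Ube2j2, Ube2g1 and Ube2k were not called, with log2 fold changes between -0.13 and 0.04.

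Of the 9 other ligase members, 2 rose and 2 fell with shRNF185.1, beside 14.6% and 14.3% of all genes. With shRNF185.3, 1 rose, beside 14.2% of all genes. Rnf145, a sterol-responsive ligase, was the one called with both. Rnf145 CPM ran from 139 through 146 to 159 in control, from 165 through 182 to 195 with shRNF185.1, and from 153 through 168 to 190 with shRNF185.3. All 6 shRNF185.1 libraries and 4 of 6 shRNF185.3 libraries exceeded the top control value. The log2 fold changes were 0.29 ± 0.05 (SE, adjusted p = 0.000492, edgeR) and 0.21 (adjusted p = 0.00829). Every batch had the same direction, with 0.39, 0.25 and 0.23 for shRNF185.1 and 0.21, 0.26 and 0.14 for shRNF185.3. The shRNF185.3 call was lost without batch 1 (adjusted p = 0.0874) and without batch 2 (0.17, adjusted p = 0.0679), in a range of 0.00127 to 0.0874.

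Erlin2 had the largest difference between the hairpins of the 41 tested members. The erlins are scaffold proteins that hold activated inositol trisphosphate receptors for ubiquitination by the ligase Rnf170. Erlin2 CPM ran from 76.1 through 79.3 to 86.6 in control, from 60.6 through 61.4 to 62.0 with shRNF185.1, and from 79.2 through 82.4 to 85.0 with shRNF185.3. The shRNF185.1 libraries were all below every other library and the shRNF185.3 libraries lay inside the control range. The log2 fold change was -0.39 with shRNF185.1 (-0.47 to -0.32, adjusted p = 1.6e-07), a fold of 0.762, and 0.03 with shRNF185.3 (-0.04 to 0.11, adjusted p = 0.546). Inside the batches the shRNF185.1 difference was -0.36, -0.44 and -0.38, and over 13 alternatives it ran from -0.41 to -0.37. Rnf185 RNA averaged 5.81 and 5.80 CPM in these same groups.

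Erlin1, the partner of Erlin2, ran from 75.8 through 91.3 to 100 CPM in control, from 70.0 through 81.5 to 92.7 with shRNF185.1, and from 91.6 through 99.1 to 113 with shRNF185.3. Its difference from control was not called with either hairpin, at -0.15 (adjusted p = 0.179) and 0.17 (adjusted p = 0.129). Without batch 2 the former was -0.31 and was called (adjusted p = 0.00442, in a range of 0.00442 to 0.976), and without batch 3 the latter was 0.30 and was called (adjusted p = 0.0278, in a range of 0.0278 to 0.925). Its direction changed between batches, with -0.20, 0.19 and -0.42 for shRNF185.1 and 0.12, 0.48 and -0.09 for shRNF185.3. Rnf170 fell with shRNF185.1, at -0.23 (-0.38 to -0.07, adjusted p = 0.0252), and had -0.17 with shRNF185.3 (-0.32 to -0.01, adjusted p = 0.0973). The Rnf170 call was lost in 7 of 13 alternatives, among them without batch 2 (-0.13, adjusted p = 0.281) and without batch 3 (-0.17, adjusted p = 0.229), in a range of 0.00393 to 0.281. Some 12.5% of the 75-base windows of Rnf170 also occur in another gene, so its reads may be shared.

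The Hrd1 complex, the main ligase complex for lumenal substrates, has the ligase gene Syvn1 and its scaffold gene Sel1l among the members. Sel1l ran from 95.9 through 105 to 115 CPM in control, from 104 through 119 to 125 with shRNF185.1, and from 94.6 through 101 to 109 with shRNF185.3. It rose with shRNF185.1, at 0.16 (adjusted p = 0.0285), and not detectably with shRNF185.3, at -0.06 (adjusted p = 0.466). The call was lost without batch 1 (0.12, adjusted p = 0.306), without batch 2 (0.17, adjusted p = 0.084) and with no filter on low counts (adjusted p = 0.0502), in a range of 0.0118 to 0.306. Syvn1 was not called, with medians of 103, 99.4 and 106 CPM and log2 fold changes of -0.02 (-0.19 to 0.15) and 0.08 (-0.10 to 0.25). Rnf139, Rnf121 and Tmem129, further membrane ligases, were not called either, at between -0.10 and 0.05.

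Dislocation factors held the largest change outside Rnf185. With each hairpin, 2 of the 8 tested were called higher and 1 lower. Herpud1 encodes a stress-induced ubiquitin-like membrane protein that helps assemble the Hrd1 complex. The gene (ENSMUSG00000031770) lies on chromosome 8 from 94386438 to 94395377 in GENCODE M21. Its CPM ran from 44.0 through 49.3 to 59.8 in control, from 63.2 through 71.8 to 77.0 with shRNF185.1, and from 72.8 through 81.5 to 89.8 with shRNF185.3. Each of the 12 hairpin libraries exceeded the top control value. The means were 49.9 ± 6.22, 71.5 ± 5.09 and 81.5 ± 6.11 CPM (SD, n = 6 each).

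The Herpud1 log2 fold change was 0.52 with shRNF185.1 (0.36 to 0.68, adjusted p = 4.05e-05), a fold of 1.43. With shRNF185.3 it was 0.71 (0.55 to 0.87, adjusted p = 1.26e-06), a fold of 1.64. It was called in all 13 alternatives with each hairpin, over which it ran from 0.44 to 0.66 and from 0.59 to 0.82. Its size varied between batches, with 0.64, 0.25 and 0.68 for shRNF185.1 and 0.71, 0.49 and 0.95 for shRNF185.3, and batch 2 was lowest for both. The difference between the hairpins was 0.19 (0.04 to 0.35) and was not called (adjusted p = 0.0973).

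Herpud1 is a textbook target of the unfolded protein response, in which transcription factors such as Atf6 and Xbp1 bind short promoter elements of endoplasmic reticulum stress genes. Promoter windows from 250 bases before to 50 after the annotated start were matched for 31 of the 43 members (RefSeq, GRCm38.p6). They were searched on both strands for 3 elements: ERSE (CCAAT, 9 bases of any kind, then CCACG), ERSE-II (ATTGG, 1 base of any kind, then CCACG) and the UPRE (TGACGTGG or TGACGTGA). Herpud1 held the only ERSE-II among the 31 members searched, an element found in 0.0444% of 27025 genes. An ERSE was found in Syvn1 and Derl3 (0.137% of all genes) and a UPRE in Ube2j1 and Vcp (1.22%). In all, 5 of 31 members, or 16.1%, had at least 1 of the elements, beside 1.38% of all genes. A match describes letters in the window and is neither a measured binding site nor a cause.

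The stretches of 180 bases before the start of 3 members are shown because these members carry different elements and had different results: Herpud1 rose, Syvn1 was not called, and Ube2j1 fell. Capitals mark the fixed letters of the element, read 5′ to 3′ on the strand of the gene; the Ube2j1 element lies on the opposite strand. The positions are chr8:94386249-94386428, chr19:6046396-6046575 and chr4:33031200-33031379, all on the plus strand.
Herpud1: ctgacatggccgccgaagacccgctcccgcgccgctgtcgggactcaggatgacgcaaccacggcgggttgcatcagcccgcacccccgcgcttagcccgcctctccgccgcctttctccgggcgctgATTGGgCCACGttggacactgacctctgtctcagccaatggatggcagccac
Syvn1: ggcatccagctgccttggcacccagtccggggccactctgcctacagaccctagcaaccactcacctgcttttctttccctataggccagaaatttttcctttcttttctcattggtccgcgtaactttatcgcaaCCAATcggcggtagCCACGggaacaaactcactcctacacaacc
Ube2j1: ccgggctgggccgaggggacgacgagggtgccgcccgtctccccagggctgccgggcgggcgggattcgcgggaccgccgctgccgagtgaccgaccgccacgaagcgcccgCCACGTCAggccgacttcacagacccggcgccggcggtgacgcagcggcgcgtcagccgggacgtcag
Counted from the start, the first base of the element is at position -52 in Herpud1, -44 in Syvn1 and -68 in Ube2j1. So a listed element was present in members called higher, called lower and not called in edgeR's test of all libraries. Ube2j1 is the only one of these shown that was called lower. Its calls were lost without batch 3 (edgeR, adjusted p = 0.0983 with shRNF185.1 and 0.394 with shRNF185.3).

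Aup1, which links Ube2g2 to the membrane and to lipid droplets, fell with both hairpins. Aup1 CPM ran from 113 through 129 to 137 in control, from 95.7 through 104 to 115 with shRNF185.1, and from 96.8 through 110 to 116 with shRNF185.3. Of 6 libraries, 5 with shRNF185.1 and 4 with shRNF185.3 were below the lowest control library. The log2 fold changes were -0.29 (adjusted p = 0.000729) and -0.22 (adjusted p = 0.00697, edgeR), and inside the batches they were -0.43, -0.19 and -0.23, and -0.26, -0.24 and -0.15. Leaving out batch 1 gave -0.22 (adjusted p = 0.0731) and -0.19 (adjusted p = 0.105), the only alternative of 13 that ended either call. Of its exonic bases, 23% overlap Htra2 on the opposite strand.

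Herpud2, the relative of Herpud1, rose with shRNF185.1. Herpud2 CPM ran from 19.0 through 20.6 to 24.7 in control, from 24.5 through 25.4 to 28.1 with shRNF185.1, and from 20.2 through 20.8 to 21.8 with shRNF185.3. The shRNF185.1 range barely met the control range, and the shRNF185.3 range lay within it. The log2 fold changes were 0.29 (adjusted p = 0.00164) and -0.03 (adjusted p = 0.78). Hm13, signal peptide peptidase, rose with shRNF185.3, from a median of 122 to 137 CPM (0.22, adjusted p = 0.00342). With shRNF185.1 it had a median of 125 CPM (0.11, adjusted p = 0.118). Its shRNF185.3 call was lost without batch 1 (0.21, adjusted p = 0.0676) and with the offset for GC content and length (0.13, adjusted p = 0.0705), in a range of 0.000144 to 0.0705.

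The derlins, membrane proteins of the dislocation channel, were not called. Derl1 had medians of 136, 134 and 134 CPM, with log2 fold changes of -0.02 (-0.13 to 0.09) and 0.00 (-0.11 to 0.11). Derl2 had medians of 41.1, 41.9 and 39.1 CPM. Derl3, the derlin of secretory tissues, was not tested, with at most 6 counts in any library. Bcap31, a chaperone-like membrane protein, and Ubac2, a partner of membrane ligases, were not called, with Ubac2 at 0.12 (0.02 to 0.21, adjusted p = 0.0538) with shRNF185.1.

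**Figure D4:**
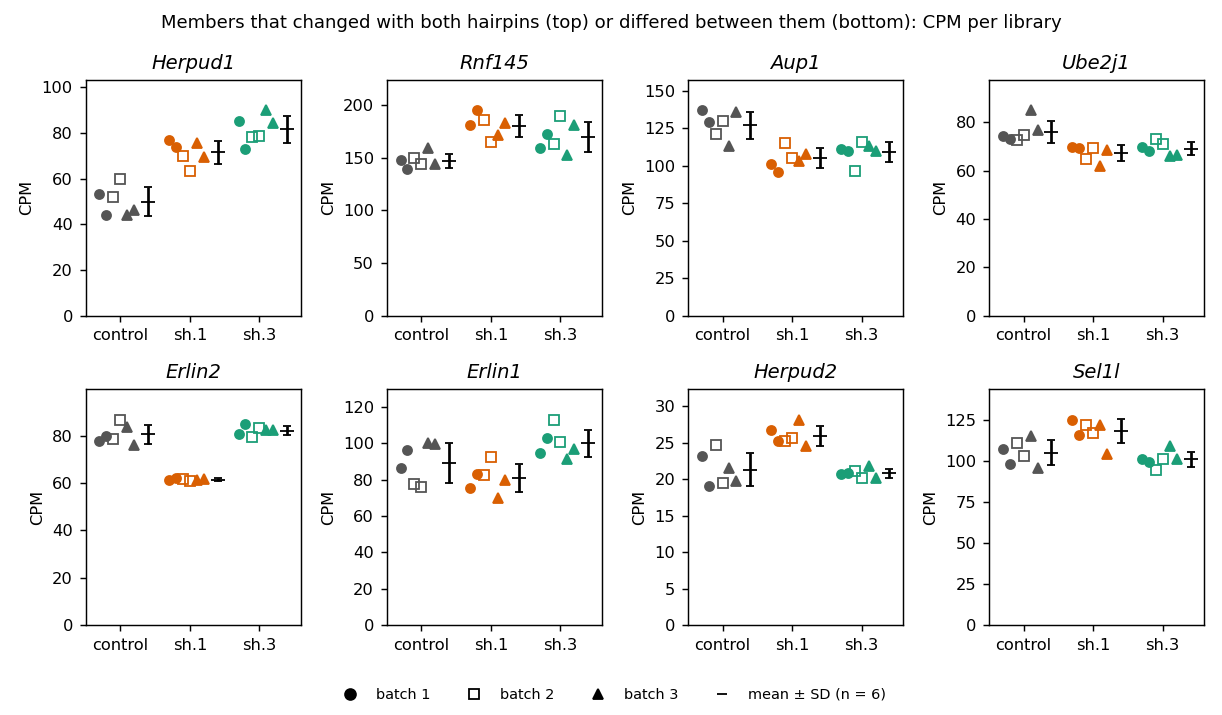
Deposited CPM per library of the 4 members besides Rnf185 that were called with both hairpins (top: Herpud1, Rnf145, Aup1, Ube2j1) and of 4 members that were called between the hairpins (bottom: Erlin2, Erlin1, Herpud2, Sel1l); sh.1 and sh.3 stand for shRNF185.1 and shRNF185.3, symbols for batches and black bars for mean ± SD of 6 libraries. Herpud1 lies at 63.2 CPM or more in the hairpin groups and at most 59.8 in control, and Erlin2 lies between 60.6 and 62.0 CPM with shRNF185.1 alone.

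None of the 6 recognition factors was called with either hairpin in edgeR's test, beside 28.9% and 27.3% of all genes with shRNF185.1 and shRNF185.3. A group of 6 is too small to set apart from those shares. The count at an unadjusted p under 0.05 was 2 with shRNF185.1 and 0 with shRNF185.3. DESeq2 and limma each called 2 with shRNF185.1, Os9 and Edem3, and 0 with shRNF185.3. Os9, a lectin that reads trimmed mannose on misfolded glycoproteins, ran from 71.9 through 98.8 to 120 CPM in control, from 100 through 119 to 136 with shRNF185.1, and from 91.4 through 105 to 128 with shRNF185.3. Its log2 fold changes were 0.30 (0.06 to 0.54, adjusted p = 0.0573) and 0.17 (-0.07 to 0.41, adjusted p = 0.294). Edem3, a mannosidase of the lumen, had 0.19 (0.04 to 0.33, adjusted p = 0.0507) and 0.08 (-0.06 to 0.23). Erlec1, the other lectin, had 0.12 (-0.14 to 0.37) and 0.03 (-0.22 to 0.29). Edem1 and Man1b1, which also trim mannose, lay within 0.06 of 0 with both hairpins.

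For several recognition factors and Syvn1 the difference from control changed sign between batches. With shRNF185.1, Os9 was 0.27, -0.13 and 0.82 from control in batches 1, 2 and 3, and with shRNF185.3 it was 0.07, -0.24 and 0.73. The Os9 batch means were 98.8, 116 and 73.5 CPM in control. They were 120, 106 and 130 CPM in the shRNF185.1 group and 104, 98.7 and 122 CPM in the shRNF185.3 group. Batch 3 thus held the lowest Os9 level in control and the highest in both hairpin groups. The deposited counts had been adjusted for batch, which evens out the batches over all groups together. A batch that is low in control then tends to be high in the hairpin groups. The part of the adjustment in this pattern, and in the other sign changes between batches, was not tested. Syvn1 went from -0.34 in batch 2 to 0.30 in batch 3 with shRNF185.1, and its control means were 103, 116 and 86.8 CPM. Edem2 went from -0.33 to 0.37, with control means of 38.7, 43.8 and 33.2 CPM. In all, 8 members with shRNF185.1 were at -0.1 or lower in batch 2 and at 0.1 or higher in batch 3, or 5 with shRNF185.3, beside 15.7% and 12.3% of all genes tested. The opposite pattern was seen in 2 members with shRNF185.1 and 3 with shRNF185.3, beside 14.2% and 9.6% of all genes. The first pattern was singled out after the values of Os9, Syvn1 and Edem2 were seen. Of 41 members, 16 and 15 kept 1 direction in all 3 batches, beside 39.8% and 47.5% of all genes. The members were counted on values rounded to 2 decimals and all genes on unrounded values, which left out Sel1l with shRNF185.3.

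**Figure D5:**
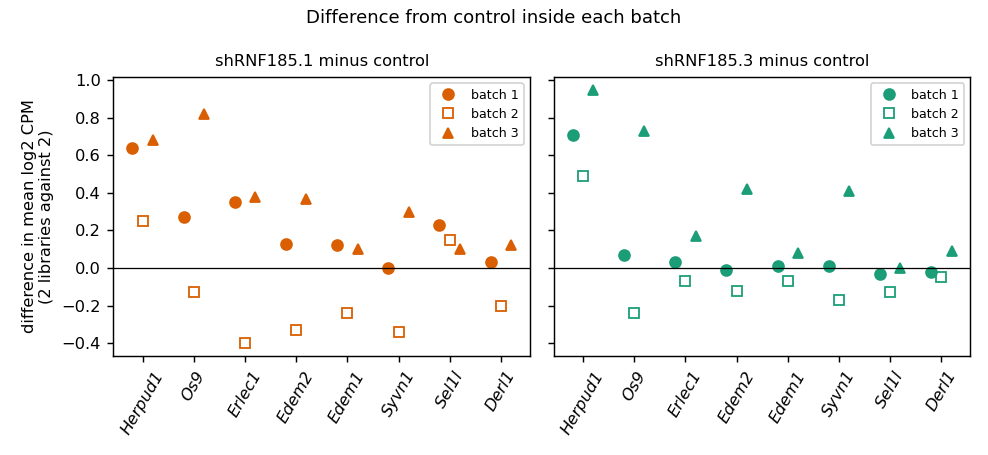
Difference in mean log2 CPM from control inside each batch (2 libraries against 2) for 8 members, with shRNF185.1 on the left and shRNF185.3 on the right; circles, squares and triangles are batches 1, 2 and 3. Herpud1 is above 0 in every batch (0.25 to 0.95), while Os9 runs from -0.13 to 0.82 with shRNF185.1 and from -0.24 to 0.73 with shRNF185.3.

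Of the 8 extraction factors tested, 1 was called higher with shRNF185.1 (14.6% of all genes) and 1 lower with shRNF185.3 (13.1% of all genes). Vcp, the ATPase that pulls substrates from the membrane, was the highest member, at 688 ± 33.4 CPM in control (SD, n = 6), with medians of 696, 708 and 696 CPM over the 3 groups. Its log2 fold changes were 0.03 (-0.07 to 0.12) and 0.01 (-0.08 to 0.11). Some 37.3% of its 75-base windows also occur in the copy Vcp-rs, so its level depends on how such reads were assigned. Its cofactor Nploc4 had 0.03 (-0.07 to 0.13) and -0.03 (-0.12 to 0.07), and the membrane recruiters Ubxn4 and Ubxn8 were not called. Faf2, another recruiter, lay above every control library in all 6 shRNF185.3 libraries (99.6 to 107 against 90.0 to 99.3 CPM), at 0.09 (0.02 to 0.17), and missed the threshold (adjusted p = 0.0702).

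Ubqln1, a shuttle between ubiquitinated proteins and the proteasome, fell with shRNF185.3. Values ran from 175 through 187 to 206 in control, from 166 through 181 to 188 with shRNF185.1, and from 150 through 162 to 169 with shRNF185.3. The log2 fold changes were -0.07 (adjusted p = 0.288) and -0.22 (adjusted p = 0.00187), and without batch 3 the latter was -0.14 (adjusted p = 0.0607, in a range of 0.000111 to 0.0607). Its relative Ubqln2 had 0.13 (0.02 to 0.23, adjusted p = 0.0598) with shRNF185.3, in the other direction. Ngly1, which strips glycans from dislocated proteins, rose with shRNF185.1, from a median of 18.9 to 23.9 CPM (0.26, adjusted p = 0.0077). With shRNF185.3 it was at 20.3 CPM (0.05, adjusted p = 0.603). Without batch 1 the Ngly1 call was lost (0.18, adjusted p = 0.225, in a range of 0.000312 to 0.225). Svip, a small inhibitor of the route, was not tested, with at most 2 counts in any library.

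Compared directly, the hairpin groups differed in 6 of 41 members, or 14.6%, beside 14.7% of all genes tested, with 2 higher in shRNF185.3 (7.72% of all genes) and 4 lower (6.94%). Erlin2 was higher with shRNF185.3 by 0.42 (0.35 to 0.50, adjusted p = 1.31e-07, edgeR), a fold of 1.34, and the batches gave 0.43, 0.41 and 0.43. Erlin1 was higher by 0.31 (adjusted p = 0.0108), with 0.32, 0.29 and 0.33 in the batches, although its differences from control changed sign between them. Both erlin RNAs were thus higher in shRNF185.3 than in shRNF185.1 in every batch. Herpud2 was lower, at -0.31 (-0.44 to -0.18, adjusted p = 0.00161), with -0.32, -0.30 and -0.32 in the batches. Sel1l was lower at -0.22 (adjusted p = 0.00858), Ubqln1 at -0.15 (adjusted p = 0.04) and Ube2g2 at -0.14 (adjusted p = 0.0345). The Erlin2 and Herpud2 calls held in all 13 alternatives. The Sel1l call was lost without batch 1 (adjusted p = 0.175) and without batch 2 (adjusted p = 0.122), and the Erlin1 call without batch 1 (adjusted p = 0.153) and with the libraries of a group and batch summed (adjusted p = 0.0912). The Ubqln1 and Ube2g2 calls were each lost in 8 alternatives.

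The remaining 26 members were called in no comparison by edgeR's test of all libraries, and their log2 fold changes against control lay between -0.13 and 0.30. The bounds of their 95% intervals lay between -0.25 and 0.54. Of these 26, 14 were called in some comparison under at least 1 of the 13 alternatives, and 12, Vcp, Syvn1, Derl1 and Derl2 among them, were called under none. Within groups, the members' log2 CPM had a median SD of 0.09, against 0.16 over all genes tested and 0.12 among the 9370 genes at or above the level of the lowest member.

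The members differed widely in level. Per kilobase of exonic length, Vcp (142 CPM per kilobase), Bcap31 (135) and Ubqln1 (42.7) were highest in control, and Ngly1 (2.63) was lowest of those tested. Rnf185 stood at rank 27 of 41 in control, at 12.4 CPM per kilobase, and at 2.0 with each hairpin. Rnf5, its paralog, stood at rank 15 in control, and at 18.2 CPM per kilobase with shRNF185.1 and 17.1 with shRNF185.3. Rnf5 RNA was thus the more abundant of the pair per length in every group, by these means.

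Further genes of the route, given as lists, showed scattered calls. Of all genes tested, 14.6% rose and 14.3% fell with shRNF185.1, and 14.2% rose and 13.1% fell with shRNF185.3. Among 16 other ligases and chain factors, 1 rose and 1 fell with shRNF185.1, and 0 rose and 3 fell with shRNF185.3. Rnf103, a further membrane ligase, fell with both, at -0.16 (adjusted p = 0.0275) and -0.33 (adjusted p = 0.000106). Among 19 tested extraction, shuttling and deubiquitylating factors, 3 rose and 0 fell with shRNF185.1, while 3 rose and 1 fell with shRNF185.3. Usp25, a deubiquitylating enzyme that counters ligases of this route, rose with both, at 0.46 (adjusted p = 5.3e-07) and 0.26 (adjusted p = 0.000333). Rhbdd1, a rhomboid protease of the endoplasmic reticulum, rose by 0.21 (adjusted p = 0.00822) and 0.28 (adjusted p = 0.000937).

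Of 18 lumenal chaperones and glycan-trimming enzymes, 1 was called higher with shRNF185.1, and 1 higher and 1 lower with shRNF185.3. Of all genes tested, 28.9% were called with shRNF185.1 and 27.3% with shRNF185.3. Uggt1, the folding sensor that reglucosylates incompletely folded glycoproteins, rose with both, at 0.27 (adjusted p = 0.000165) and 0.22 (adjusted p = 0.00109). Man1a, a mannosidase of the Golgi, fell with shRNF185.3, at -0.41 (adjusted p = 0.00542), and was at 0.09 with shRNF185.1 (adjusted p = 0.551). Hspa5, the main chaperone of the lumen and named here after its values were seen, was not called, at 0.08 (adjusted p = 0.471) and 0.02 (adjusted p = 0.904), while Herpud1 rose. Of 9 genes whose proteins have been reported as substrates of Rnf185 or Rnf5, 8 were tested and 0 were called with either hairpin by edgeR, DESeq2 or limma on all libraries. Without batch 2, 4 of the 8 were called with shRNF185.1, 2 of them higher and 2 lower, beside 35.7% of all genes in that setting. At an unadjusted p under 0.05, edgeR's count was 0 with shRNF185.1 and 1 with shRNF185.3, which was Bnip1 at 0.22 (adjusted p = 0.119). A transcript level does not measure the degradation of these proteins. The median log2 fold changes of the 4 lists lay between -0.03 and 0.04, beside -0.02 over all genes with each hairpin.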

How the data were processed

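Per the labels' protocols, polyadenylated RNA was sequenced from directional libraries as single-end reads. Cutadapt 2.3, STAR 2.7.0d, RSEM 1.3.1 and the build mm10 are named in the submitters' processing notes. The annotation and the strand setting of the counting are not given in the sources used here. A count table and a CPM table were deposited, both adjusted with ComBat-Seq per the labels. The deposited values of the former were taken to be expected counts, because 0.466% of the values (3998) are not whole, and were rounded. The analysis plan had assumed whole counts, and its test was kept. The deposited CPM are a scaled signal whose sums run from 969986 to 1026394. All sample columns matched a library by name.

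Counts were tested in R 4.3.3 with edgeR 4.0.16: filterByExpr with a minimum count of 10 (14309 of 47643 genes kept), TMM scaling, 1 mean per group over all 18 libraries, the quasi-likelihood F test and Benjamini-Hochberg adjustment over all genes tested. Genes were called at an adjusted p under 0.05. This fit had no batch term, because the deposited counts were already adjusted for batch. With a batch term 24.9% of all genes were called with shRNF185.1 and 22.8% with shRNF185.3, in place of 28.9% and 27.3%. Intervals at 95% came from the standard error. Log2 CPM used a prior count of 2. The code was tested on simulated data. No pair of libraries in a group looked like a duplicate, with a chi-square per gene of 7.64 to 84.4 over 45 pairs. A floor of 3 counts equals 0.0692 to 0.136 CPM and covers counting error only.

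The members, the lists and the markers were chosen with earlier results of these data known. Some of the luminal markers first listed are not reported here, so the luminal list is not complete. Values in full are given for Rnf185, Rnf5 and the complex partners, for members called with both hairpins in the same direction, and for the 6 members with the lowest p between the hairpins. From each further list at most the 2 genes with the lowest p for the mean of both hairpins are named, with Hspa5 added after its values were seen. Alternatives used DESeq2 1.42.0, limma 3.58.1 on log2(CPM + 1), other scaling, no filter, a replicate block, a batch term, each batch left out, summed libraries, and offsets for GC content and length. Positions are from GENCODE M21 (GRCm38), matched by identifier.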

Additional observations from a re-analysis of the deposited data

Results flagged for a closer look

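In 2 of 45 sets of 6 libraries examined (15 members in 3 groups), 1 library stood apart from its group, where chance alone gives about 1 in 20, or 2.25 sets. For Ube2j1 the fifth control library had a log2 CPM of 6.41, and the next highest was 6.27. For Aup1 the third shRNF185.3 library had a log2 CPM of 6.60, and the next lowest was 6.78.

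For 6 members the effect differed between the hairpins by a direct test of shRNF185.3 against shRNF185.1 (edgeR, adjusted over all genes). The log2 difference was 0.42 for Erlin2 and 0.31 for Erlin1, both higher with shRNF185.3. It was -0.31 for Herpud2, -0.22 for Sel1l, -0.15 for Ubqln1 and -0.14 for Ube2g2, all lower with shRNF185.3.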

How the results depend on the processing

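Values of single members were tallied for those given in full or called with 1 hairpin, as 69 results under 13 alternatives. Among these, no direction of a called value reversed. Of their 897 values, 789 kept their side of the threshold, 77 lost a call and 31 gained one. The direction of values that were not called could change. Other members are outside this tally, and some of them gained calls, such as Edem3 under 9 alternatives. Rnf185 and Herpud1 stayed called with each hairpin, and Erlin2 stayed called with shRNF185.1 and between the hairpins, in all 13. The number of members called ran from 7 to 15 with shRNF185.1, from 4 to 11 with shRNF185.3 and from 2 to 10 between the hairpins. The share of all genes called also moved, from 12.7% to 35.7%, from 12.0% to 32.0% and from 5.27% to 18.3% in the same order. The 12.7% and 12.0% came with no filter, where 28169 genes were tested in place of 14309, so these shares have another base. The replicate numbers showed no steady pairing of the libraries: 4 of 18 same-numbered pairs had deviations correlated above 0.1 (mean -0.0144 over 9671 genes). The correlations ran from -0.628 to 0.705. Because the counts had been adjusted for batch, this check cannot decide whether the numbers pair the libraries. With the replicate block 10 members were called with shRNF185.1, 7 with shRNF185.3 and 4 between the hairpins, beside 26.6%, 25.0% and 13.8% of all genes. The cause of each change below was not tested beyond what leaving out libraries does by itself.

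With shRNF185.3, 4 members were called without batch 1, in place of 9 (14.9% of all genes in that setting, in place of 27.3%). Between the hairpins, in place of 6, the count was 2 without batch 1, 3 without batch 2, 3 with the libraries of a group and batch summed, and 10 with the GC and length offset. All genes called in those settings came to 5.27%, 8.42%, 11.7% and 18.3%, in place of 14.7%. Members called with both hairpins in the same direction numbered 2 without batch 1, in place of 5. Members called with a log2 fold change of at least 0.5 with shRNF185.1 numbered 1 without batch 1, 1 without batch 3, 1 with the GC and length offset and 1 with the replicate block and that offset together, in place of 2, since Herpud1 then lay between 0.44 and 0.48.

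Among the further ligases and chain factors, the shRNF185.1 count of 2 became 4 with DESeq2, 4 with the replicate block, and 1 with no filter, the batch covariate, without batch 1, without batch 3 or the GC and length offset. The shRNF185.3 count of 3 became 1 without batch 3 and 1 with summed libraries. Among the extraction and shuttling factors, the shRNF185.1 count of 3 became 1 without batch 1, 6 without batch 2 and 5 with the GC and length offset, and the shRNF185.3 count of 4 became 7 without batch 2. Among the lumenal chaperones, the shRNF185.1 count of 1 became 2 with DESeq2, 5 without batch 2, 4 without batch 3, 4 with the GC and length offset and 4 with the replicate block and that offset. Their shRNF185.3 count of 2 became 1 without batch 1 and 1 without batch 3. Of the reported substrates 4 were called with shRNF185.1 without batch 2, in place of 0. Of all genes, 30.1% were called with shRNF185.1 by DESeq2 and 26.6% with the replicate block, in place of 28.9%. With no filter the share was 12.7%, of 28169 genes tested. The batch covariate gave 24.9%, the GC and length offset 32.2%, and the block and offset together 29.7%. Leaving out batches 1, 2 and 3 gave 15.5%, 35.7% and 20.3%. With shRNF185.3, leaving them out gave 14.9%, 26.8% and 17.4%, and summed libraries 20.1%, in place of 27.3%. A comparison of member proteins was not run.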
